A study of Mus musculus with 67 samples.

Results

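The libraries described here are the 12 of wild-type (WT) mouse microglia in culture that received either thapsigargin with PDBu (Tg+PDBu, 6 libraries) or LPS (6 libraries), out of 67 libraries in the series. They were chosen by genotype and treatment in the library names, and each Tg+PDBu library was set directly against the LPS library of the same culture, with no vehicle library in the test. The series measured RNA of microglia, which are brain-resident macrophages, with and without the calcium channel gene Orai1, in culture and after sorting from adult brain. The cultures were grown from hippocampus of neonatal mice (P2-P5), and the cells were shaken off an astrocyte layer before treatment. All cultures had been given 1 µM OH-tamoxifen. The Tg+PDBu cultures received 0.2 µM thapsigargin with 50 nM PDBu for 6 h, and the LPS cultures received 10 ng/ml LPS from Escherichia coli O111:B4 for 6 h. The WT mice carried Orai1fl/fl alleles without a Cre. Vehicle (DMSO) libraries of the same 6 cultures are used below only to show where a level lay. KO cultures came from Orai1fl/fl Cx3CR1-cre/ERT2 mice and received the same treatments, so loss of Orai1 and presence of the Cre cannot be told apart in them, and the deletion itself was not checked here. Sorted WT microglia came from adult mice (10 to 12 weeks) that had waited 30 to 35 days since their last tamoxifen dose and then received 1 mg/kg LPS or PBS vehicle.

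Both stimuli activate microglia, by different routes. Thapsigargin blocks the pump that refills the calcium stores of the endoplasmic reticulum; as the stores empty, STIM proteins open Orai channels and calcium enters, which activates calcineurin and NFAT. PDBu, a phorbol ester, switches on protein kinase C, and calcium entry together with that kinase is a classical pair of signals for cytokine genes in immune cells. LPS, from the outer membrane of Gram-negative bacteria, is sensed by TLR4 and drives NF-κB and interferon programmes.

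Total counts in the 12 libraries ran from 8379739 to 15591237, with a median of 9888250, and 13626 of 45707 rows had enough counts to be tested. The deposited tables carry counts without gene names. Rows are therefore numbered by position from the top, no gene name or function is attached to any row, and the labelled cell type was not checked against its markers. The labelled sex was checked with 4 rows found in sorted male cells and 2 found in sorted female cells. In WT female replicate 3 the male rows stood at 0.576 and 0.463 of the male mean in the Tg+PDBu and the LPS library, against at most 0.0223 in the other female libraries. Its female rows stood at 0.463 and 0.372 of the female mean, against at most 0.0543 in the male libraries. Both libraries of that culture thus stood between the levels of the 2 sexes, and it is called WT female replicate 3 as labelled. The labels do not say whether a culture came from 1 mouse or from pooled pups, so p-values measure the spread between these cultures.

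Tg+PDBu and LPS left WT microglia with widely different RNA levels. Of 13626 rows tested, 7480 (54.9%) differed between the treatments at a Benjamini-Hochberg adjusted p under 0.05 in edgeR's quasi-likelihood test with culture as a block. Of these, 3929 rows (28.8%) were higher with Tg+PDBu and 3551 (26.1%) were lower with Tg+PDBu. The median difference was 0.90 on the log2 scale among the rows that were higher and -0.94 among those that were lower. Over 2-fold differences were found in 1702 rows that were higher and 1672 that were lower. Larger differences lay more often on the LPS side, with 601 rows over 4-fold higher with Tg+PDBu and 773 over 4-fold lower. Over 16-fold, 91 rows were higher and 187 were lower.

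**Figure D1:**
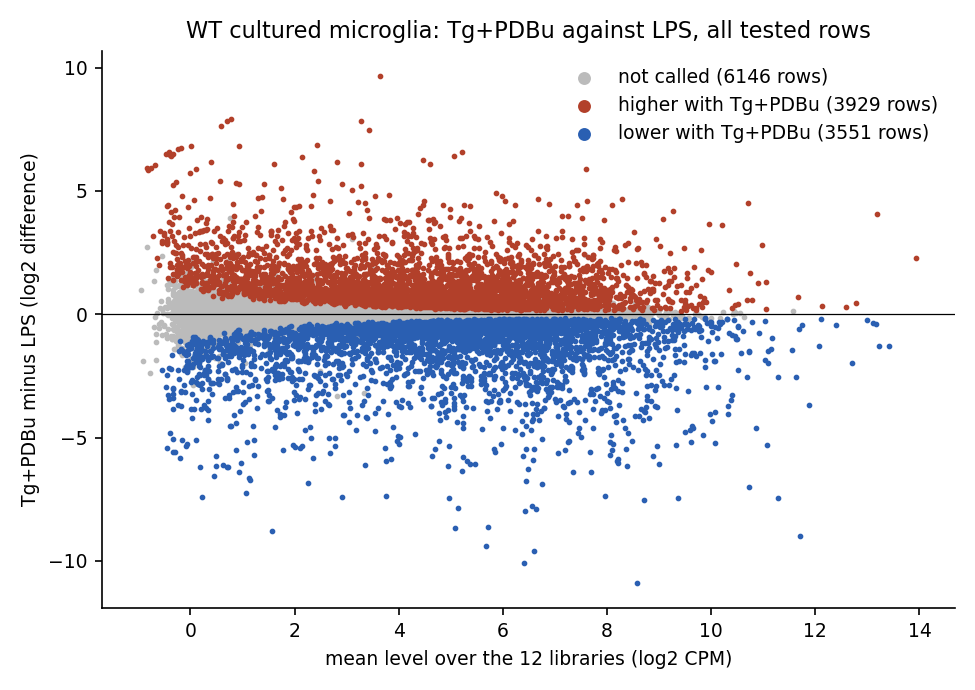
Each point is 1 of the 13626 rows tested, with its mean level over the 12 libraries (log2 CPM, horizontal) and its Tg+PDBu minus LPS difference (log2, vertical). The 3929 rows higher with Tg+PDBu are red, the 3551 lower are blue and the 6146 not called are grey, and the blue points reach further from 0 than most red ones, especially at high levels.

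How the directions divide depends on the scaling. Counts were scaled by TMM, which estimates how far a library's total is taken up by a few rows, and the factors were 0.907 ± 0.051 in Tg+PDBu libraries and 0.756 ± 0.106 in LPS libraries (SD, n = 6 each). With total counts alone as the scale, the median difference of all rows moved by 0.23 on the log2 scale towards Tg+PDBu, and 5430 rows were higher and 2481 lower, which put 68.6% of the called rows on the Tg+PDBu side in place of 52.5%. With the RLE scale this share was 48.9%. All directions given here are relative to the TMM scale. No row called on that scale was called in the opposite direction on either of the others.

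Most called rows had the same direction in every culture. Among the 3929 rows called higher, 3443 (87.6%) were higher with Tg+PDBu in all 6 cultures. Among the 3551 called lower, 3144 (88.5%) were lower in all 6. Over all 13626 rows tested, 3628 (26.6%) were higher in all 6 cultures and 3337 (24.5%) were lower in all 6. The calls were made on these same cultures, so the shares among called rows are no further evidence of a difference. In 2405 of the tested rows (17.7%) every Tg+PDBu library lay above every LPS library, and in 2124 (15.6%) every Tg+PDBu library lay below. Without WT female replicate 3, 7038 rows were called, 3741 higher and 3297 lower.

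The row with the largest difference on the Tg+PDBu side under the naming rule, row 1217, was near silent without Tg+PDBu. The rule took called rows with a mean level of at least 1 on the log2 CPM scale, the same sign in every culture and more than 3 counts in each treatment. Row 1217 had 14.8 CPM in the lowest, 23.4 in the median and 40.3 in the highest Tg+PDBu library, whereas it had no count in 4 of the 6 LPS libraries and at most 0.434 CPM in the others. The groups did not overlap, and with 6 counts in all LPS libraries together the fold change is loosely fixed. Its difference was 7.47 ± 0.55 on the log2 scale (SE; edgeR adjusted p = 6.12e-06). In vehicle libraries it ranged from 0.0669 to 0.324 CPM, so its level with LPS lay in the same low range as without a stimulus.

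Row 14974 was also far higher with Tg+PDBu, with 65.7 CPM in the lowest, 83.5 in the median and 121 in the highest Tg+PDBu library, against 0.289, 0.654 and 2.05 CPM in LPS libraries. The groups did not overlap. The same direction in all 6 cultures was a condition of the naming rule. The difference was 6.56 ± 0.38 on the log2 scale (edgeR adjusted p = 1.55e-06). Its vehicle libraries had 1.05 to 3.69 CPM, a median of 2.65, and overlapped those with LPS.

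The LPS side held rows that were near silent with Tg+PDBu and among the abundant ones with LPS. Row 693 had 0.226 CPM in the lowest, 0.451 in the median and 0.686 in the highest Tg+PDBu library, against 214, 1098.5 and 1620 CPM in LPS libraries. Row 693 showed the largest difference that met the rule, -10.88 ± 0.28 on the log2 scale (edgeR adjusted p = 5.43e-08). Its vehicle libraries had no count apart from 3.1 CPM in WT female replicate 2, so Tg+PDBu left it near the vehicle level.

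Row 14695 followed the same pattern at a lower level. It had 0, 0.11 and 0.536 CPM in the lowest, the median and the highest Tg+PDBu library, with 10 counts in all, against 90.6, 242.5 and 300 CPM in LPS libraries. Its difference was -10.07 ± 0.37 on the log2 scale (edgeR adjusted p = 1.64e-07). Vehicle libraries had 0 to 0.477 CPM, the same range as Tg+PDBu libraries.

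**Figure D2:**
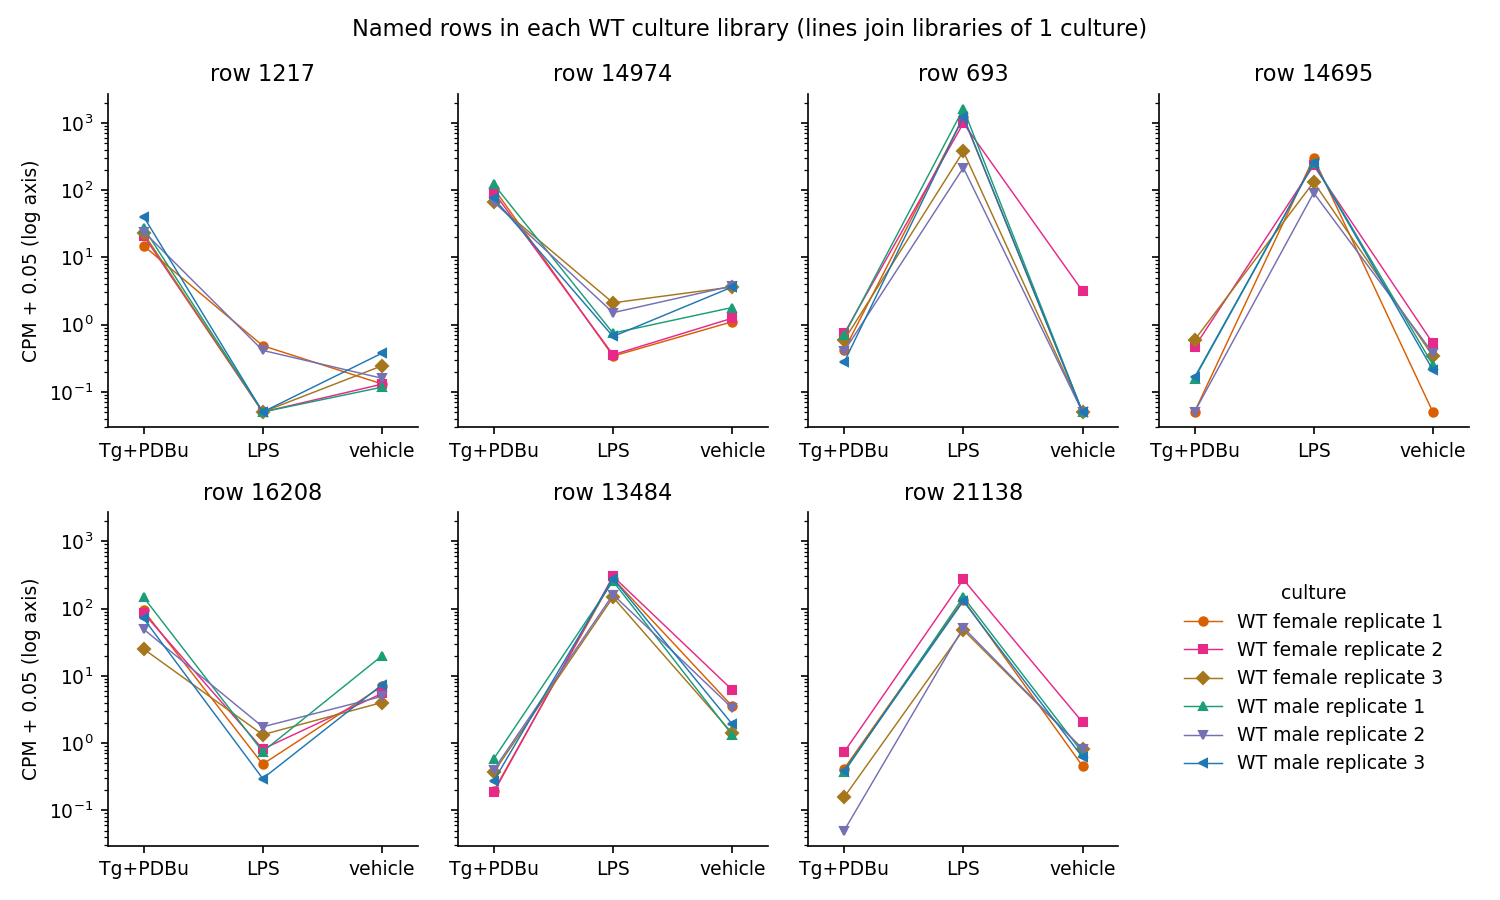
Levels of 7 rows (CPM + 0.05, log axis) in the Tg+PDBu, LPS and vehicle library of each WT culture, with a line for each of the 6 cultures. Rows 1217, 14974 and 16208 are high with Tg+PDBu in every culture, rows 693, 14695, 13484 and 21138 are high with LPS in every culture, and for the last 4 the LPS libraries of WT female replicate 3 and WT male replicate 2 are the lowest.

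Few rows switched between presence and absence under a strict limit of at most 3 counts in all libraries of 1 treatment. Row 693, near silent with 26 counts in the WT Tg+PDBu libraries, does not meet it. Of 11683 rows at 1 CPM or more in all 6 Tg+PDBu libraries, 8 had at most 3 counts in the LPS libraries together. Of 11583 rows at 1 CPM or more in all 6 LPS libraries, 12 had at most 3 counts in the Tg+PDBu libraries together. The rows over 16-fold higher with Tg+PDBu were mostly of low abundance, with a median level of 2.31 log2 CPM, and 30 of the 91 had at most 3 counts in all LPS libraries, so that their fitted size depends on the small count added before the logarithm. The 187 over 16-fold lower had a median level of 5.37 log2 CPM, and 25 of them had at most 3 counts with Tg+PDBu.

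Abundant rows were more often called, and more often on the LPS side. The tested rows were divided by mean level into 4 equal groups. In the lowest, up to 2.21 log2 CPM, 37.1% were called, 720 of them higher with Tg+PDBu and 544 lower. In the second group 50.7% were called, 1054 higher and 672 lower, and in the third 60% were called, 1175 higher and 869 lower. In the highest, above 5.91 log2 CPM, 71.8% were called, with the balance turned: 980 rows were higher with Tg+PDBu and 1466 were lower. The median standard error of a difference fell along these groups, 0.36, 0.18, 0.11 and 0.09 on the log2 scale, so small differences were detectable mainly in abundant rows.

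At the top of the range, 118 rows exceeded 1000 CPM on average with Tg+PDBu, of which 59 were called higher and 45 lower than with LPS. With LPS, 175 rows exceeded 1000 CPM, and 143 of them were called lower with Tg+PDBu while 17 were called higher. Each set was picked by its level with 1 treatment, which favours rows higher with that treatment, so these counts carry no test. As a share of counts, the rows called higher took 43.3% ± 0.6 in Tg+PDBu libraries, 17.8% ± 1.1 in LPS libraries and 27.1% ± 0.3 in vehicle libraries (SD, n = 6 each). The rows called lower took 31.2% ± 0.1, 60.3% ± 2.8 and 44.3% ± 0.9 in the same order of treatments. These shares describe rows chosen in the same libraries and carry no test.

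Some whole-library measures also differed. The 100 most counted rows of each library held 25.5% ± 0.9 of the counts with Tg+PDBu and 27.3% ± 1.4 with LPS, a difference of -1.78 percentage points that was negative in all 6 cultures (exact sign-flip permutation test, two-sided, p = 0.03125, the smallest that 6 pairs can give). For the 500 most counted rows the difference was -3.48 percentage points, again negative in all 6 cultures (exact p = 0.03125), and for the 50 most counted rows it was -0.64 (exact p = 0.1875). The number of rows at 1 CPM or more, here with total counts alone as the scale, averaged 12728.7 ± 262.7 with Tg+PDBu and 12402.8 ± 539.7 with LPS. It was higher with Tg+PDBu in 4 of 6 cultures (exact p = 0.125). TMM factors were lower in LPS libraries, which affects this number, and it was not counted on the TMM scale. Total counts showed no difference beyond the spread, 10514400 ± 2620250 with Tg+PDBu and 10316000 ± 1302980 with LPS (exact p = 0.9375).

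Levels spread more between the LPS libraries than between the Tg+PDBu libraries. Over the 11868 rows with a mean level of at least 1 log2 CPM, the median SD between libraries was 0.22 on the log2 scale with Tg+PDBu and 0.30 with LPS, and 33.4% of the rows had the larger SD with Tg+PDBu. Within single cultures, the rows over 2-fold higher with Tg+PDBu numbered 2312, 2481 and 1741 in WT female replicates 1, 2 and 3 and 2247, 2064 and 2140 in WT male replicates 1, 2 and 3. The rows over 2-fold lower numbered 1912, 2328 and 1940 in the female and 2042, 1870 and 2075 in the male cultures. WT female replicate 3 was the one culture with more rows lower than higher.

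**Figure D3:**
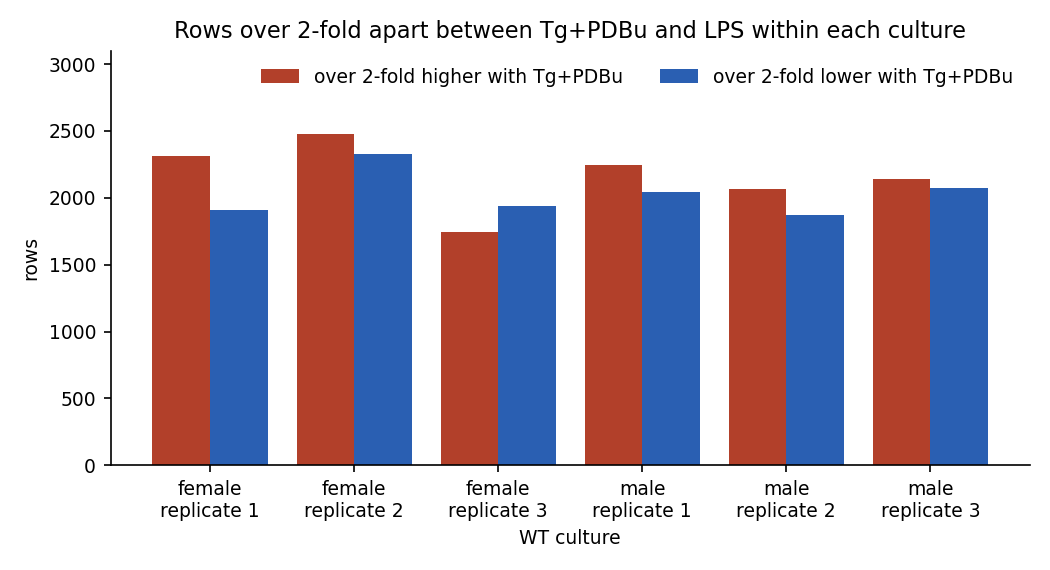
Bars give the number of rows over 2-fold higher (red) and over 2-fold lower (blue) with Tg+PDBu than with LPS within each of the 6 WT cultures, from TMM-scaled log2 CPM. The counts run from 1741 to 2481 higher and from 1870 to 2328 lower, with WT female replicate 2 the most different by both counts.

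In the rows furthest above Tg+PDBu with LPS, much of the spread between LPS libraries lay in a pair of cultures. For the 187 rows over 16-fold lower with Tg+PDBu, which are the rows highest with LPS relative to Tg+PDBu, the LPS libraries of WT female replicate 3 and WT male replicate 2 lay at a median of -0.60 and -0.74 from the mean of the 6 LPS libraries on the log2 scale, and the other 4 lay at 0.21 to 0.64. The WT male replicate 2 library was the lowest of the 6 in 111 of these rows and the WT female replicate 3 library in 58. Their TMM factors, 0.861 and 0.909, were the highest of the LPS libraries, whose other 4 ran from 0.643 to 0.738. The same cultures also had the highest factors with Tg+PDBu, 0.940 and 0.991, against 0.858 to 0.905 in the other 4. In the same rows the 6 Tg+PDBu libraries lay within -0.13 to 0.21 of their mean. The rows were chosen for being low with Tg+PDBu, and 25 of them had at most 3 counts there. At such levels the count added before the logarithm narrows the spread, so the 2 treatments cannot be compared by these ranges. Within WT female replicate 3 and within WT male replicate 2, 179 of the 187 rows were still over 4-fold lower with Tg+PDBu. In the library names this pair carried culture numbers 3 and 4, and the other cultures carried 9, 10, 12 and 14. WT female replicate 3 is also the culture whose sex rows stood between the levels of the sexes. What set the pair apart was not tested, and neither was its part in the SD over all rows.

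Row 693 shows this spread: its LPS libraries had 375 CPM in WT female replicate 3 and 214 in WT male replicate 2, and 987 to 1620 CPM in the other 4. Rows 14695, 13484 and 21138 likewise had their lowest LPS levels in these 2 cultures. With Tg+PDBu, row 14974 had 65.7 and 66.5 CPM in the same 2 cultures and 74.8 to 121 in the others, whereas row 1217 was lowest in WT female replicate 1. Without WT male replicate 2, 7473 rows were called, 4156 higher and 3317 lower.

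Vehicle libraries show on which side of the resting level these rows moved. Against vehicle, 8407 of 14212 rows (59.2%) were called with Tg+PDBu, 4284 higher (30.1%) and 4123 lower (29%), and 8058 (56.7%) were called with LPS, 3762 higher (26.5%) and 4296 lower (30.2%). These contrasts share the vehicle libraries with each other and the stimulated libraries with the direct test, so the counts below place the rows and are no further evidence of a difference. The 3929 rows higher with Tg+PDBu than with LPS most often stood above vehicle with Tg+PDBu and were not called with LPS, in 1250 rows (31.8%). A further 886 rows (22.6%) were not called with Tg+PDBu and stood below vehicle with LPS. In 678 rows (17.3%) the 2 stimuli moved the level in opposite directions.

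Smaller classes moved the same way with both stimuli. There were 525 rows above vehicle with both and more so with Tg+PDBu, at a median of 1.21 with Tg+PDBu and 0.50 with LPS on the log2 scale. There were 388 rows below vehicle with both and less so with Tg+PDBu, at a median of -0.70 with Tg+PDBu and -1.45 with LPS. The remaining 202 rows were called in neither contrast with vehicle.

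The 3551 rows lower with Tg+PDBu than with LPS were most often above vehicle with LPS and not called with Tg+PDBu, in 943 rows (26.6%), at a median of 1.07 on the log2 scale with LPS. In 816 rows (23%) Tg+PDBu was below vehicle and LPS was not called. Another 599 rows (16.9%) were above vehicle with both, at a median of 0.72 with Tg+PDBu and 1.72 with LPS. In 565 rows (15.9%) Tg+PDBu was below vehicle and LPS above it, at medians of -0.73 and 0.85. The last 2 classes were 488 rows below vehicle with both and 140 called in neither contrast.

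**Figure D4:**
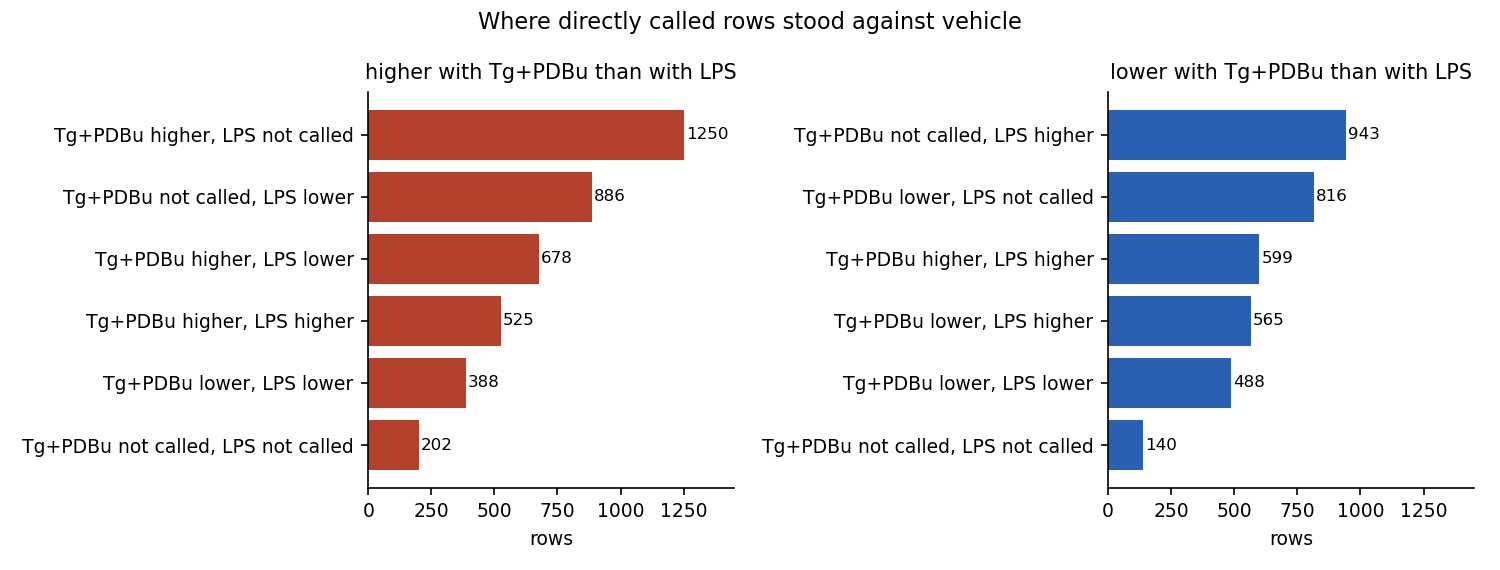
Bars give the number of rows called higher (left, 3929 rows) or lower (right, 3551 rows) with Tg+PDBu than with LPS, divided by how Tg+PDBu and LPS each stood against vehicle. The longest bar on the left is Tg+PDBu higher with LPS not called, 1250 rows, and on the right LPS higher with Tg+PDBu not called, 943 rows.

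The rows over 16-fold apart lay mostly in a few of these classes. Of the 91 rows over 16-fold higher with Tg+PDBu, 49 were above vehicle with Tg+PDBu and not called with LPS, and 30 were above vehicle with Tg+PDBu and below it with LPS. These classes held 1581 and 678 of the 13626 rows tested, and 31.8% and 17.3% of all rows called higher. Of the 187 rows over 16-fold lower, 79 were above vehicle with LPS and not called with Tg+PDBu, 55 were above vehicle with LPS and below it with Tg+PDBu, and 51 were above vehicle with both. In the same order, these classes held 1178, 565 and 2015 of the rows tested, and 26.6%, 15.9% and 16.9% of all rows called lower. A row this far apart has to lie away from vehicle with at least 1 stimulus, so these counts carry no test.

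Rows that moved in opposite directions had the largest direct differences by class, a median of 1.51 on the log2 scale for the 678 rows higher with Tg+PDBu and -1.76 for the 565 rows lower. This follows from how the classes were made, since opposite steps from vehicle add up in the direct difference. Row 14974 was 1 of the 2 rows named among the 678, at 5.29 ± 0.35 with Tg+PDBu and -1.36 ± 0.48 with LPS against vehicle on the log2 scale (edgeR adjusted p = 1.47e-08 and 0.0269). The other, row 16208, had 25, 78.3 and 147 CPM in the lowest, the median and the highest Tg+PDBu library, against 0.246, 0.728 and 1.69 CPM in LPS libraries. Vehicle libraries of row 16208 lay between them without overlap with either group, at 3.95 to 19.7 CPM. The direct difference of row 16208 was 6.40 ± 0.45 on the log2 scale (edgeR adjusted p = 4.91e-06), made of 3.37 ± 0.29 with Tg+PDBu and -3.06 ± 0.42 with LPS against vehicle.

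Row 13484 was the mirror image. It had 0.137, 0.274 and 0.536 CPM in the lowest, the median and the highest Tg+PDBu library, against 147, 267 and 301 CPM in LPS libraries, and 1.27 to 6.12 CPM in vehicle libraries. The 3 groups did not overlap. The direct difference of row 13484 was -9.59 ± 0.22 on the log2 scale (edgeR adjusted p = 4.79e-08), with -3.17 ± 0.47 for Tg+PDBu and 6.45 ± 0.26 for LPS against vehicle.

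Row 21138 had 0, 0.331 and 0.686 CPM in the lowest, the median and the highest Tg+PDBu library, against 47.9, 132 and 270 CPM in LPS libraries. Its vehicle libraries, at 0.405 to 1.99 CPM, overlapped those with Tg+PDBu. The direct difference of row 21138 was -8.63 ± 0.17 on the log2 scale (edgeR adjusted p = 4.79e-08), and the step below vehicle with Tg+PDBu was small beside it, at -1.37 ± 0.41 (edgeR adjusted p = 0.0105).

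No sex difference in the contrast between the stimuli was detected by edgeR. With the male minus female difference as a term, 0 of 13626 rows (0%) were called by edgeR's quasi-likelihood test, 427 had an unadjusted p under 0.05, and the lowest adjusted p was 0.502. DESeq2 called 8 rows, 3 higher and 5 lower in males, and limma voom called 0. The median standard error of this difference was 0.31 on the log2 scale, and in simulated data of the same size 20% of 2-fold and 67% of 4-fold sex differences were recovered, so most 2-fold and some 4-fold sex differences would be missed at this size. One of the 3 female cultures is the one whose sex rows stood between the levels of the 2 sexes.

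KO cultures gave the same contrast in libraries that share nothing with the WT ones. The 4 KO cultures with both treatments were female culture 16 and male cultures 6, 8 and 18. WT had 3 female and 3 male cultures. In these 4 KO cultures, 7006 of 15840 rows (44.2%) were called by edgeR's test, 3509 higher with Tg+PDBu (22.2%) and 3497 lower (22.1%). Of the 3929 rows higher with Tg+PDBu in WT, 3896 were tested in KO, and 2312 were called higher there and 83 lower. The 2312 were 58.8% of the WT list and 65.9% of the KO list. Of the 3551 rows lower in WT, 3516 were tested in KO, and 2118 were called lower and 126 higher, with the 2118 making 59.6% of the WT list and 60.6% of the KO list. The median difference over the WT lists was smaller in KO, at 0.57 in KO and 0.89 in WT on the log2 scale for rows higher, and at -0.55 in KO and -0.93 in WT for rows lower. The lists were chosen on WT values, so these medians carry no test.

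Rows over 16-fold apart in WT were mostly called in KO as well. Of the 187 over 16-fold lower, 175 were tested in KO, 172 were called lower and 0 were called higher. Of the 91 over 16-fold higher, 77 were tested, 62 were called higher and 1 lower. Row 693 gave -9.09 ± 0.30 and row 1217 gave 5.54 ± 0.27 on the log2 scale in KO (edgeR adjusted p = 4.74e-06 and 1.34e-05). Neither row was called for a difference between KO and WT (edgeR adjusted p = 0.0862 for row 693 and 0.163 for row 1217). Row 14695 was, with -6.22 ± 0.38 in KO on the log2 scale, 3.95 ± 0.85 above WT (edgeR adjusted p = 0.00762).

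The rule for naming rows picked rows 3460, 17372, 6096 and 13484 in KO. Row 3460 had 22.3 to 47.8 CPM in the 5 KO Tg+PDBu libraries, against 0.102 to 0.546 CPM in the 5 KO LPS libraries, and row 17372 had 9.8 to 21.4 CPM, against 0 to 0.546 CPM. In WT cultures these rows were high with Tg+PDBu at lower levels, 2.05 to 7.69 CPM for row 3460, against 0 to 0.762 CPM with LPS, and 1.24 to 5.25 CPM for row 17372, which had no count with LPS. Row 6096 had 0.18 to 2.17 CPM with Tg+PDBu in KO, against 356 to 1300 CPM with LPS in KO. In WT row 6096 reached 14.6 to 58.8 CPM with Tg+PDBu, against 2280 to 9820 CPM with LPS. Row 6096 was thus higher in WT with both stimuli, and its Tg+PDBu minus LPS difference was -9.92 ± 0.16 in KO and -7.44 ± 0.25 in WT on the log2 scale (edgeR adjusted p for the difference between them, 0.00176).

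**Figure D5:**
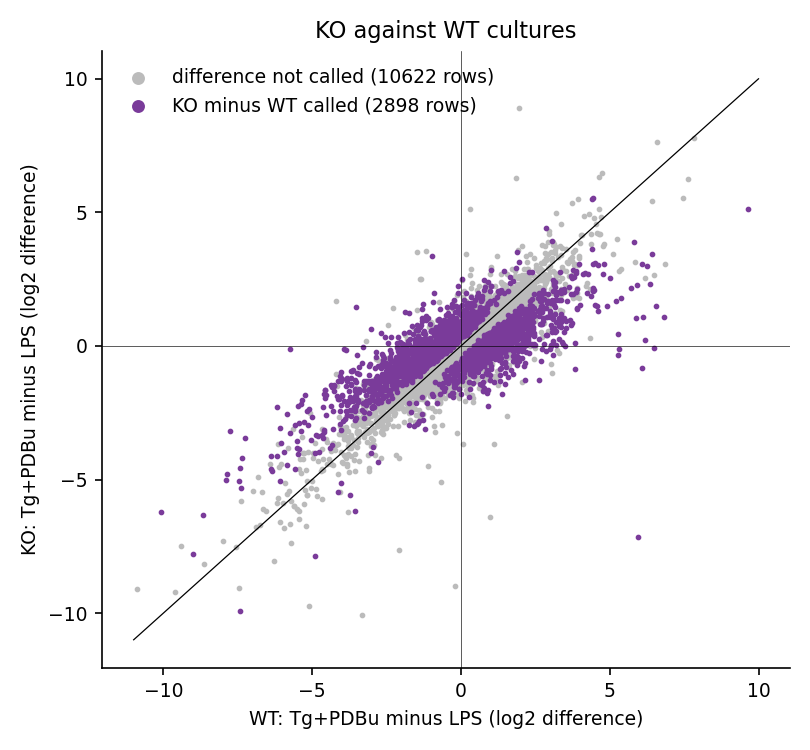
Each point is 1 row tested in both genotypes, with its Tg+PDBu minus LPS difference in KO (log2, vertical) and in WT (log2, horizontal), and the line marks equal differences. The 2898 purple rows were called for a KO minus WT difference and the 10622 grey ones were not. Most purple points lie nearer to 0 in KO than in WT, which carries no test because the WT values also enter the call.

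Tested directly, the difference between the stimuli differed between KO and WT in 2938 of 16152 rows (18.2%), with the KO difference above the WT one in 1876 (11.6%) and below it in 1062 (6.58%). Of these, 1271 were rows lower with Tg+PDBu in WT whose difference was less negative or positive in KO, and 846 were rows higher in WT whose difference was smaller or negative in KO. This balance depended on the fit: with RLE scaling 1478 rows were above and 1280 below, with DESeq2 1835 and 1578, and with all 34 culture libraries in 1 model without the replicate block the balance turned, 1448 above and 1523 below. Single KO cultures mattered: without KO male culture 8, 1909 rows were called, 1178 of them above the WT difference, and that number was 1212 without KO female culture 16 and 1231 without KO male culture 18. The fit had no term for sex in the difference between the stimuli, and sex was unevenly divided between KO and WT.

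Row 14974 was 1 of the 2 rows named below the WT difference. It had 13.6, 20.8, 19.4, 19.9 and 10.4 CPM with Tg+PDBu in KO, against 3.67, 7.1, 5.02, 4.74 and 7.06 CPM with LPS in KO. All KO Tg+PDBu libraries lay below the lowest WT one, 65.7 CPM, and all KO LPS libraries above the highest WT one, 2.05 CPM. The difference of row 14974 was 1.49 ± 0.28 in KO on the log2 scale, -5.02 ± 0.53 relative to WT (edgeR adjusted p = 0.000134).

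Row 11919 showed no called difference between the stimuli in KO (edgeR adjusted p = 0.616). With Tg+PDBu it had 1.35, 3.37, 2.22, 1.04 and 2.7 CPM in KO, against 6.63, 5.9, 2.25, 1.47 and 1.39 CPM with LPS in KO, and these groups overlapped. In WT it had 9.17 to 24.1 CPM with Tg+PDBu, against 0 to 1.21 CPM with LPS, without overlap. The KO minus WT difference of row 11919 was -5.56 ± 0.77 on the log2 scale (edgeR adjusted p = 0.00058).

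Row 624 had 1.35, 1.65, 1.48, 2.92 and 2.34 CPM with Tg+PDBu in KO, against 27.1, 14.2, 19.9, 30.9 and 13.2 CPM with LPS in KO. In WT it had 0.365 to 1.93 CPM with Tg+PDBu, against 136 to 305 CPM with LPS, so its LPS level was lower in every KO library than in any WT library. Its difference was 4.67 ± 0.48 above the WT one on the log2 scale (edgeR adjusted p = 0.00012). Row 21039, a row of low level, had 5.25 to 13.3 CPM with Tg+PDBu in KO, against 0.328 to 2.14 CPM with LPS in KO. In WT row 21039 was slightly lower with Tg+PDBu, at 0.429 to 2.58 CPM, against 1.97 to 3.04 CPM with LPS, which gave a KO minus WT difference of 4.42 ± 0.54 on the log2 scale (edgeR adjusted p = 0.000295).

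Sorted WT microglia were read for LPS alone, since no sorted library used here received Tg+PDBu. The tables appeared to list rows in the same order, as the Spearman correlation of mean levels over 26168 rows was 0.853, against 0.259 to 0.269 after a shift of 1 to 3 rows. In 8 LPS libraries at 24 h against 6 vehicle libraries, 4099 of 14162 rows (28.9%) were called by edgeR's test, 2220 higher with LPS (15.7%) and 1879 lower (13.3%). Of the 3551 rows lower with Tg+PDBu in culture, 3160 were tested in sorted cells, and 835 were higher with LPS (26.4% of those tested) and 386 lower (12.2%). Those 835 made 23.5% of the culture list and 37.6% of the sorted list. Of the 3929 rows higher with Tg+PDBu in culture, 3509 were tested, and 549 were lower with LPS in sorted cells (15.6%) and 595 higher (17%), both near the shares over all rows.

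Of the 187 rows over 16-fold lower with Tg+PDBu in culture, 124 had enough counts in sorted cells, and 75 of these were higher with LPS and 9 lower. The others could not be tested, and a row at low level in vehicle enters the test more easily when it is high with LPS, so the 75 are also given as 40.1% of the whole list. Row 6096 had 40.7, 61.4 and 116 CPM in the lowest, the median and the highest sorted LPS library, against 6.14, 8.3 and 15.5 CPM in sorted vehicle libraries. Its groups did not overlap, and the difference was 2.93 ± 0.27 on the log2 scale (edgeR adjusted p = 6.03e-06).

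Of the rows named in the direct comparison, rows 693, 13484 and 21138 were also called higher with LPS in sorted cells, at far lower levels than in LPS cultures. Row 693 had 0.492, 2.6 and 4.5 CPM in the lowest, the median and the highest sorted LPS library, against 0 to 0.261 CPM in vehicle, with 3 counts in all vehicle libraries (edgeR adjusted p = 0.000373). Row 13484 had 0.771 to 5.94 CPM with LPS and no count in the 6 vehicle libraries (edgeR adjusted p = 0.000308). No fold is given for either row because vehicle was at or under 3 counts. Row 21138 had 1.15, 4.77 and 13.4 CPM in the lowest, the median and the highest sorted LPS library, against 1.1, 1.43 and 3.53 CPM in vehicle, groups that overlapped (1.77 ± 0.60 on the log2 scale, edgeR adjusted p = 0.0402). Rows 14695, 1217 and 14974 had too few counts to be tested, and none of them exceeded 2.09 CPM in any of these 14 libraries. Row 16208, lower with LPS in culture, had 3.11, 14 and 30.5 CPM in the lowest, the median and the highest sorted LPS library, against 1.44, 4.89 and 14.3 CPM in vehicle, which overlapped and was not called (1.35 ± 0.57 on the log2 scale, edgeR adjusted p = 0.0927). Time, dose, age and preparation all differ between the sorted cells and the cultures and cannot be told apart.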

How the data were processed

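Poly(A) RNA of cultured microglia was made into libraries with a NEBNext kit, per the labels' protocols. The values deposited by the authors are raw whole-number counts for each row. The submitters' processing notes list Trim Galore 0.6.7, STAR 2.7.10a and Salmon 1.10.1 with the build GRCm38; counting settings are not given in the sources used here.

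Rows were filtered with filterByExpr (minimum count 10, minimum total 15) and scaled by TMM. Tests were two-sided quasi-likelihood F tests of edgeR 4.0.16 in R 4.3.3, with culture as a block and Benjamini-Hochberg adjustment over all rows tested at 0.05. The 13626 rows kept held 99.871% of the counts. Levels are TMM-scaled CPM, each table scaled on its own, and a prior count of 2 entered log2 CPM. The number of rows at 1 CPM or more in each library was counted with total counts alone as the scale. Standard errors come from the difference and its F statistic. DESeq2 1.42.0 and limma voom 3.58.1 with quality weights were alternatives. Reads carry no molecular identifiers, and each SE or SD includes counting error.

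Library names carry a culture number, which was used to pair libraries. Deviations from the group mean correlated at 0.152 to 0.498 within a culture and at -0.327 to 0.144 between cultures of the same sex, and each of the 6 cultures correlated best with itself. Each group mean was that of the libraries of 1 sex and treatment. A positive value within a culture then pushes the values between cultures down, so part of the gap is built in. Replicates differed beyond sampling noise in all 12 pairs checked, with a chi-square of at least 12.7 per degree of freedom. The direct comparison was tested on simulated data of 13381 rows, of which 200 were changed. It recovered 67% of the 2-fold and 92% of the 4-fold changes and made 5 false calls. Changed rows had a mean level of at least 1 log2 CPM, with equal numbers raised and lowered. Far fewer rows were changed there than were called in the data, so these rates need not hold for the direct comparison.

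The KO fit used 8 libraries of 4 cultures; 2 KO libraries without a partner entered only the levels. Named rows are the 2 largest differences in each direction under the limits given with the results. For the genotype and sex differences the 2 sets of cultures also had to be free of overlap, and for the sex difference no row was called. The libraries, comparisons and lists were chosen with earlier results of these data known. Without gene names, the gene lists and cell type markers were not tested, and neither was the sharing of reads between similar genes.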

Additional observations from a re-analysis of the deposited data

Results flagged for a closer look

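One library stood apart in depth: WT female replicate 1 with Tg+PDBu held 15591237 counts, well above the other 5 Tg+PDBu libraries. It was the single such value among 20 groups of 6 libraries examined, and chance alone gives about 1 in 20. Without that culture 6722 rows were called in the direct comparison.

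The difference between Tg+PDBu and LPS was unequal in KO and WT cultures for 2938 rows by edgeR's test of that inequality. The rows named there were row 624 (4.67, KO minus WT, log2 scale), row 21039 (4.42), row 11919 (-5.56) and row 14974 (-5.02). Each kept its direction and its call in every alternative run.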

How the results depend on the processing

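The 7 rows named in the direct comparison, the 4 named in KO and the 4 named for the KO minus WT difference kept their sign and call in every alternative run for those comparisons; calls of single rows against vehicle, in sorted cells, and of rows 6096 and 14695 between genotypes were not re-run. Without the replicate block, in the same libraries, 6664 rows were called in the direct comparison of WT cultures, and 6543 of the 7480 calls were kept; 5740 were kept in every alternative other than the single sexes and the scale without TMM factors. Leaving out each WT culture in turn gave 6676 to 7473 calls, 3444 to 4156 higher and 3225 to 3425 lower. Fewer cultures gave fewer calls: females alone gave 4829 rows (2492 higher, 2337 lower) and males alone 4796 (2439 higher, 2357 lower). The scale without TMM factors was chosen after seeing the data. DESeq2 called 8 rows for the sex difference (3 higher, 5 lower in males), where edgeR called 0. The KO minus WT count ran from 1909 to 3312 when each culture was left out, with 1178 to 2122 higher and 731 to 1190 lower. It was 4027 with limma voom and 2152 without the replicate block. The share of the 100 most counted rows differed by -2.09 to -1.48 percentage points with 5 cultures (exact p = 0.0625, the smallest that 5 pairs can give), and by -0.64 for the 50 most counted rows (exact p = 0.1875). Total counts averaged 198388 more with Tg+PDBu, and -876039 to 605047 with each culture left out, the lowest without WT female replicate 1. Depth limits rows of low level, where the median standard error was 0.36 on the log2 scale.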
